A study of Mus musculus with 8 samples.

Results

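The enzymes and cofactors of sphingosine phosphate, ceramide and lysolipid metabolism were followed in cultured mouse sacral neural crest cells, with Sphk1 as the leading gene. The named genes were Sphk1, Sgpl1, Sgpp1, Sgpp2, Degs1, Psap, Cers5, Kdsr and Enpp2, each taken as the probe set with its symbol alone and, where there were several, the brightest. Of these 9, 8 were measured, out of 6855 genes tested, and each of the 8 had 1 probe set. Enpp2, which encodes autotaxin, was not analysed here. The genes were put together with the difference between the genotypes in these same arrays known, so their own differences are given as a description, with no test.

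The cells came from mouse embryos at embryonic day 9.5, either Dom/Dom, with the Dom allele on both copies of Sox10, or wild type (WT). Dom is a frameshift allele of the transcription factor gene Sox10, so all cells of a Dom/Dom embryo carry it. Neural tube from the level caudal to somite 24 was kept for 24 hours in DMEM/F12 with 10% fetal bovine serum, the tissue piece was removed, and RNA was taken from the cells that had migrated out. Each genotype had 4 Affymetrix Mouse Gene 1.0 ST arrays, numbered as replicates 1 to 4, and levels are given in log2 units as deposited. The labels do not state whether replicates are different embryos. P-values therefore cover the scatter among these arrays alone, which could be technical. Sox10 RNA, still made from the Dom allele and therefore no check of the labels, stood at 9.98, 10.94, 10.52 and 10.55 in Dom/Dom replicates 1 to 4, against 11.67, 11.46, 11.89 and 11.75 in WT. Correlations between arrays over all probe sets ran from 0.969 to 0.994, and no array was identical to another.

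Sphingolipids are built on a sphingoid base made in the endoplasmic reticulum. KDSR reduces the first product of the pathway, ceramide synthases such as CERS5 add a fatty acid, and DEGS1 introduces the double bond that turns dihydroceramide into ceramide. Ceramide is carried on to sphingomyelin and glycosphingolipids or cut to sphingosine, which the kinase SPHK1 phosphorylates to sphingosine 1-phosphate, a signal that acts through receptors of the S1PR family and is known for its effects on cell migration and blood vessels. The phosphatases SGPP1 and SGPP2 return it to sphingosine, and the lyase SGPL1 breaks it down for good. Prosaposin, the product of Psap, is cut in lysosomes into the saposins, small proteins that present glycosphingolipids to the enzymes that degrade them.

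Sphk1, which encodes sphingosine kinase 1, was the one gene of the 8 whose levels were separate between the genotypes. Its level was 8.97, 8.97, 9.06 and 9.16 in Dom/Dom replicates 1 to 4, against 9.83, 9.74, 10.17 and 10.26 in WT. The highest Dom/Dom array lay below the lowest WT array, and in both genotypes replicates 3 and 4 stood above replicates 1 and 2. The means were 9.04 ± 0.09 in Dom/Dom and 10.00 ± 0.25 in WT (SD, n = 4 each), so Dom/Dom minus WT was -0.96 (standard error 0.12), or 1.94-fold lower in Dom/Dom. By replicate number the differences were -0.86, -0.76, -1.11 and -1.10. In the limma fit over all genes, 1 of the 8 measured genes passed an adjusted p of 0.05, Sphk1 among the lower ones, where 0.481% of all genes passed in either direction and 0.408% were lower. With the replicate number as a block the count was again 1 of 8, and 1.50% of all genes passed. By the size of the fall Sphk1 stood in place 19 of the 28 lower genes. Of all 33 genes that passed in either direction, 16 differed by at least 2-fold. Since the choice of Sphk1 rested on this contrast, nothing is read from these counts. In bulk RNA, fewer cells of a type and less RNA per cell cannot be told apart.

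The sequences around the annotated starts of Sphk1 are shown because SOX10 is a DNA-binding factor of the SOX family and Sphk1 was the gene that stood apart. RefSeq (GRCm38.p6) lists 5 windows for Sphk1, each of 300 bases from 250 before to 50 after a start, of which windows 2 and 3 largely overlap, as do 4 and 5. The capitals mark matches to hexamers of the SOX type, namely ACAAAG or ACAATG as the usual forms and TCAAAG or else TCAATG as the related ones, searched on both strands, with no overlap between matches. The windows lie on the plus strand of chromosome 11 except that of Kdsr, the other one of the 8 genes with a match, which lies on the minus strand of chromosome 1.
Sphk1, window 1, chr11:116530850-116531149: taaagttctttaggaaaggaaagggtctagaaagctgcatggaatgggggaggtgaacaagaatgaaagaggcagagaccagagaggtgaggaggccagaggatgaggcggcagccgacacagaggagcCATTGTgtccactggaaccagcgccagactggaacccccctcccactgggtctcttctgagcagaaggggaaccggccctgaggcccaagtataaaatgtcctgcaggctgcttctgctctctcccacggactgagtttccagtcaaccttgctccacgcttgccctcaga
Sphk1, window 2, chr11:116531587-116531886: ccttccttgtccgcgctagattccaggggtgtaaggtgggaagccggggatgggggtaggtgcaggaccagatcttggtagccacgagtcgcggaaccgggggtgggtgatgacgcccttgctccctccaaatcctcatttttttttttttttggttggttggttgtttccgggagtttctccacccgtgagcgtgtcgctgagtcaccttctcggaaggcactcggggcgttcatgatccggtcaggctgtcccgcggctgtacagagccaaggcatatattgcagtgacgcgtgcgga
Sphk1, window 4, chr11:116532194-116532493: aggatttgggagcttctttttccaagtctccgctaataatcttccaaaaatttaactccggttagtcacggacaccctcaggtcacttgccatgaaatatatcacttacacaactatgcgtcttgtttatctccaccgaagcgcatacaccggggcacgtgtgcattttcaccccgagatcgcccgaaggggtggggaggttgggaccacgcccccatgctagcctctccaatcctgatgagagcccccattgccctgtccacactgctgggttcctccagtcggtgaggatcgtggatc
Kdsr, chr1:106759693-106759992: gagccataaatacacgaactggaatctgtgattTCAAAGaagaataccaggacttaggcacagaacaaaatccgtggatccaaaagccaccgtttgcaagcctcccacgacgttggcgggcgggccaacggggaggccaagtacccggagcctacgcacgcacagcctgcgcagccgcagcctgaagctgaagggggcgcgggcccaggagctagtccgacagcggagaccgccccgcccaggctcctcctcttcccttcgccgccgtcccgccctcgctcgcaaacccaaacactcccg
The 1 match of Sphk1 was ACAATG on the strand opposite to the gene, with its first base in the window 121 bases before the start, and it lay in window 1 only, the other 4 windows holding 0. In Kdsr, TCAAAG began 217 bases before the start. Over the 8 genes 2 of 13 windows held a match (15.4%), against 44.0% of all 32851 promoter windows. A match of these letters is a description of the sequence, not of binding, and the hexamers are frequent in windows of this length.

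**Figure D1:**
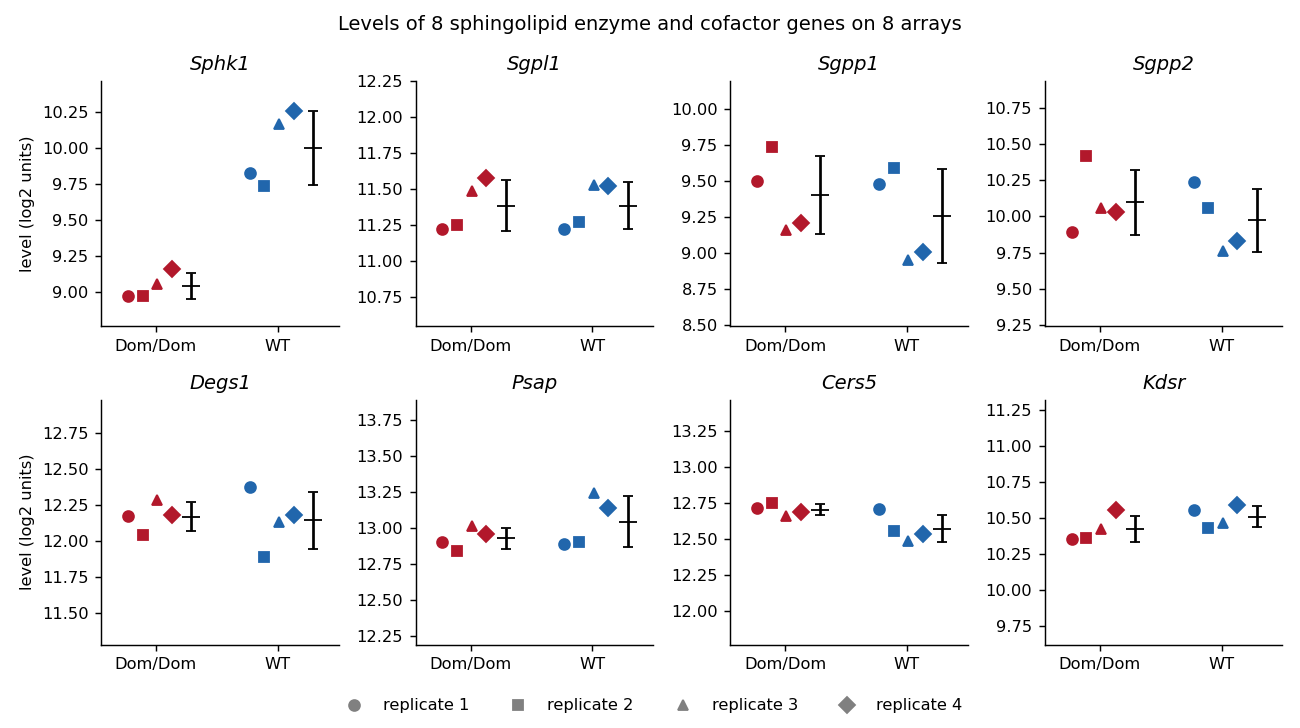
Levels in log2 units (vertical axis, the same span in each panel) of the 8 measured genes on each array, Dom/Dom in red and WT in blue, with symbols for replicates 1 to 4 and black bars for the mean and SD of 4 arrays. Sphk1 is the single panel in which the genotypes do not overlap (8.97 to 9.16 in Dom/Dom, against 9.74 to 10.26 in WT).

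The genes that remove sphingosine 1-phosphate overlapped between the genotypes. Sgpl1, the lyase, stood at 11.22, 11.25, 11.49 and 11.58 in Dom/Dom replicates 1 to 4, against 11.22, 11.27, 11.53 and 11.52 in WT. Same-numbered arrays were nearly level, with differences between -0.03 and 0.06, and replicates 3 and 4 were higher than 1 and 2 in both genotypes. Sgpp1, a phosphatase, stood at 9.5, 9.74, 9.16 and 9.21 in Dom/Dom, against 9.48, 9.59, 8.95 and 9.01 in WT. It ran the other way over the replicates, being lower in 3 and 4 in both genotypes, and was higher in Dom/Dom in 4 of 4 pairs by 0.02, 0.14, 0.21 and 0.20. The means were 9.40 ± 0.27 in Dom/Dom and 9.26 ± 0.33 in WT (SD, n = 4 each), a difference of 0.14 (standard error 0.17). This difference was smaller than the SD within either genotype. That SD, however, is mostly spread between replicate numbers, which held 90.8% of the sum of squares of Sgpp1, and does not measure the spread of the pair differences. All standard errors given here are from the fit without the replicate block. Sgpp2, the second phosphatase, stood at 9.89, 10.42, 10.06 and 10.03 in Dom/Dom, against 10.24, 10.06, 9.76 and 9.83 in WT. It was lower in Dom/Dom in pair 1 (-0.35) and higher in pairs 2 to 4 (0.36, 0.29 and 0.20), with a mean difference of 0.13 (standard error 0.14).

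The genes of ceramide synthesis differed little. Cers5, a ceramide synthase, stood at 12.72, 12.75, 12.66 and 12.69 in Dom/Dom, against 12.71, 12.56, 12.49 and 12.54 in WT. WT replicate 1 lay within the range of the Dom/Dom arrays, and the other 3 WT arrays lay below that range. The difference was 0.13 (standard error 0.08), above 0 in 4 of 4 pairs. Kdsr, the reductase, stood at 10.35, 10.36, 10.42 and 10.55 in Dom/Dom, against 10.55, 10.43, 10.46 and 10.59 in WT, lower in Dom/Dom in 4 of 4 pairs with a mean difference of -0.09 (standard error 0.08). Degs1, the desaturase, stood at 12.17, 12.04, 12.28 and 12.18 in Dom/Dom, against 12.37, 11.89, 12.13 and 12.18 in WT. The lowest and the highest of its 8 values were both in WT, and the mean difference was 0.03 (standard error 0.11).

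Psap, the prosaposin gene, stood at 12.90, 12.84, 13.01 and 12.96 in Dom/Dom, against 12.89, 12.90, 13.24 and 13.14 in WT. WT replicates 3 and 4 lay above every other array, and the remaining 6 arrays overlapped. The mean difference was -0.11 (standard error 0.10), made up of 0.02 and -0.05 in pairs 1 and 2 and of -0.23 and -0.18 in pairs 3 and 4. Of the 8 genes, 4 (Sphk1, Sgpp1, Cers5 and Kdsr) had the same sign in 4 of 4 pairs, as did 21.1% of all genes, and in 1 the genotypes were fully separate, which held for 3.78% of all genes. Apart from Sphk1 the differences were at most 0.14 in size, beside a median size of 0.06 over all genes.

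The 8 genes differed in what their variation over the arrays followed. When each gene's sum of squares was divided between genotype, replicate number and the rest, genotype held 89.5% for Sphk1 and replicate number 8.27%. Replicate number held 98.4% for Sgpl1, 90.8% for Sgpp1, 71.6% for Degs1, 67.6% for Psap and 57.7% for Kdsr. Cers5 was the other gene in which genotype held the largest share (51.7%), over a range of only 0.26 log2 units between its lowest and highest array. Sgpp2 had the largest unassigned rest (47.6%). Over all genes the medians of these shares were 5.58% for genotype and 71.3% for replicate number, with a median range of 0.42 log2 units over the 8 arrays, against 1.29 for Sphk1. These shares describe 8 arrays and were not tested.

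**Figure D2:**
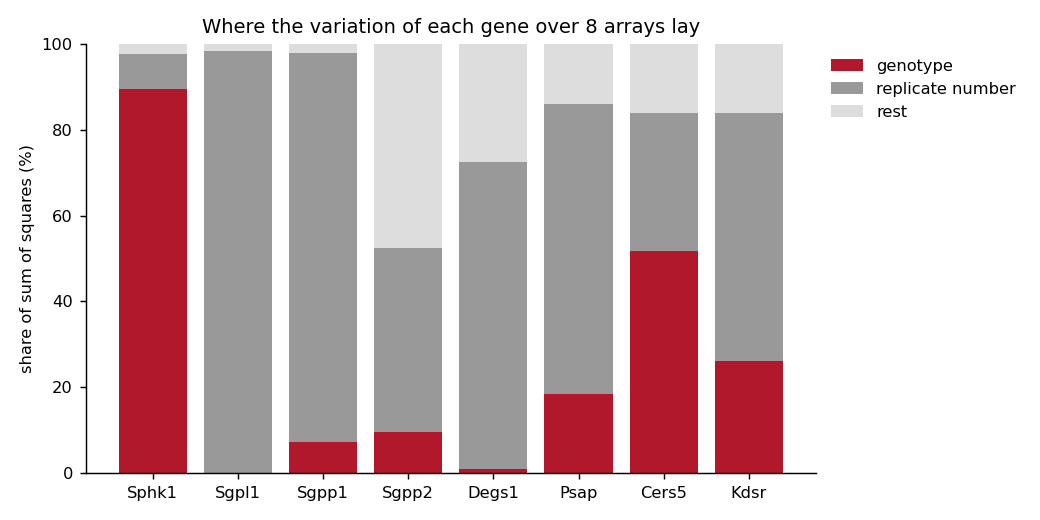
Share of each gene's sum of squares over 8 arrays, in percent (vertical axis), that lay between the genotypes (red), between replicate numbers (dark grey) and in the rest (light grey). Genotype fills 89.5% of the bar of Sphk1, and replicate number 98.4% of the bar of Sgpl1.

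The wider pathway was read from 7 lists of 102 genes, of which 43 were measured, the 8 genes above and 35 others. The lists were chosen with earlier results of these data known, so their counts are a description. By the limma fit over all genes 1 of the 35 was lower in Dom/Dom, 0 were higher and 34 did not pass, where 0.408% of all genes were lower and 0.0729% higher. At an unadjusted p under 0.05 the count was 5 of 35, 5 of them lower and 0 higher. Of all 6855 genes 6.11% passed, 267 lower and 152 higher. The levels did not overlap between the genotypes in 5 of the 35, and in 3.78% of all genes. The median difference of the 35 was -0.01, and that of all genes 0.00. With the replicate block 1 of the 35 passed, the same gene. At an unadjusted p under 0.05 the count was then 10 of 35, 2 higher and 8 lower, where 13.9% of all genes passed, 437 higher and 513 lower.

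**Figure D3:**
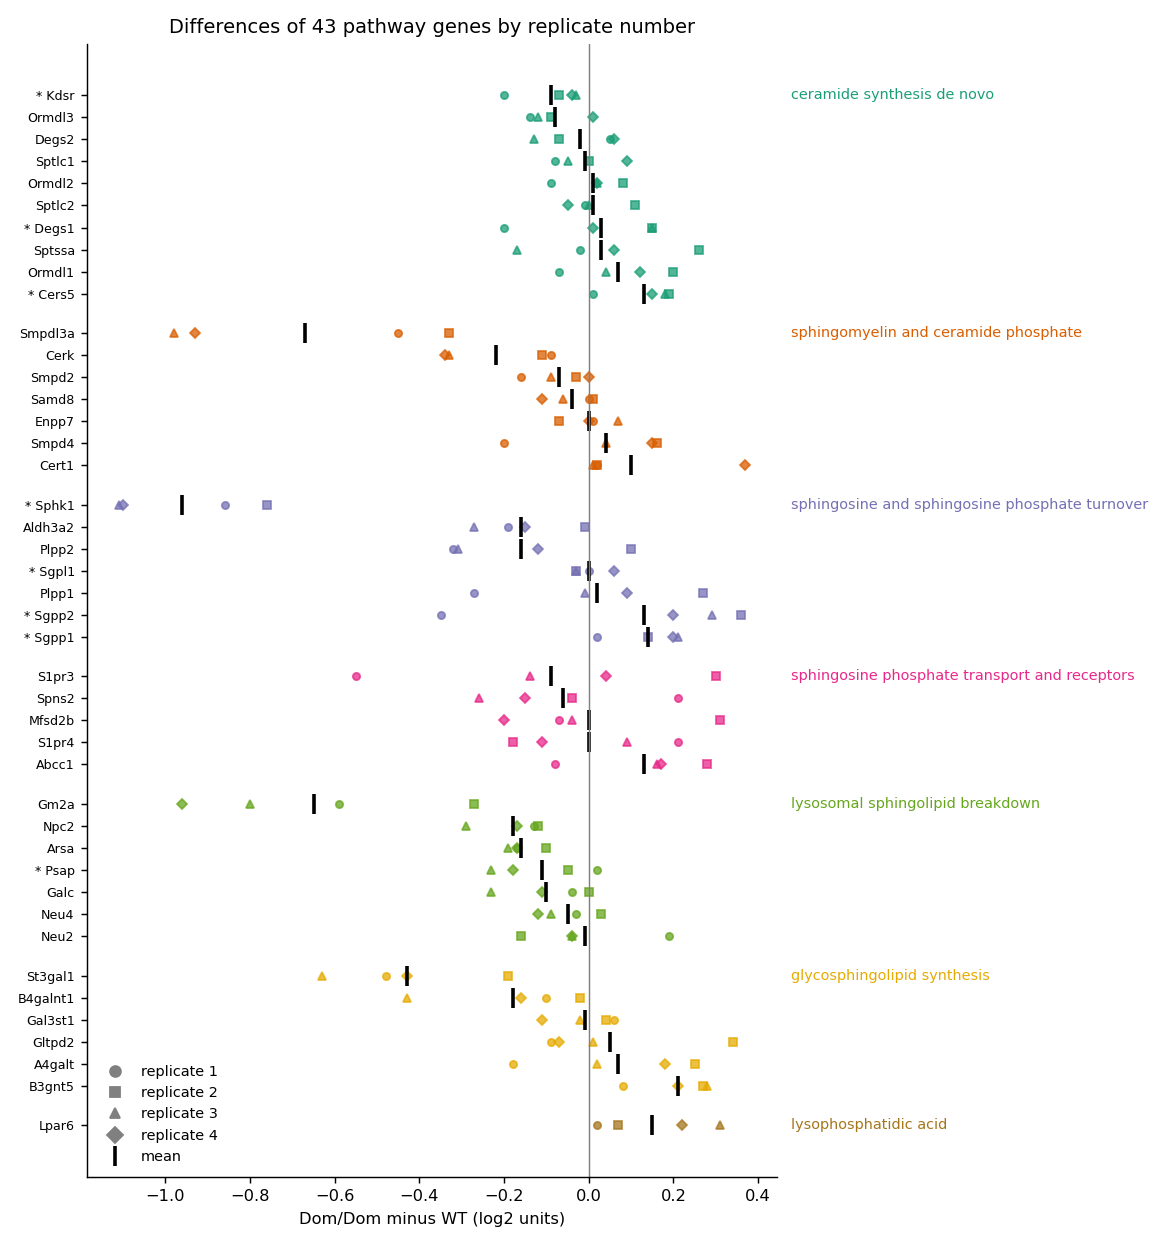
Dom/Dom minus WT in log2 units (horizontal axis) for the 43 measured pathway genes, in rows grouped by the 7 lists, with symbols for the 4 same-numbered pairs and a black bar for the mean. Asterisks mark the 8 genes described first. The largest falls, Sphk1 (mean -0.96), Smpdl3a (-0.67), Gm2a (-0.65) and St3gal1 (-0.43), lie left of 0 in every pair. So do several smaller ones, among them Cerk (-0.22) and Kdsr (-0.09). Over all genes, 21.1% had the same sign in all 4 pairs.

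The gene that fell was Gm2a, which encodes the GM2 activator, a lysosomal cofactor that lifts the ganglioside GM2 from the membrane for cleavage. It stood at 10.43, 10.51, 10.49 and 10.35 in Dom/Dom, against 11.02, 10.78, 11.29 and 11.31 in WT, without overlap. The difference was -0.65 with a standard error of 0.12, 1.57-fold lower in Dom/Dom (limma adjusted p = 0.0446). It was lower in 4 of 4 pairs, by -0.59, -0.27, -0.80 and -0.96. The difference ran from -0.76 to -0.58 over the alternatives tried, and the call was narrow: over the alternatives tried, its adjusted p ran from 0.00326 to 0.184, and it was lost without any 1 of 7 arrays, WT replicate 2 being the exception (0.0122). It was also lost when each array was centred on its median (0.0868), after quantile normalization (0.0757) and when all probe sets with 1 symbol were tested (0.0509).

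In the lysosomal list Gm2a and Psap were accompanied by small differences of one sign. All 7 measured genes, Psap included, had a mean below 0, where 3456 of the 6855 genes did, and their median difference was -0.11. Neu2 (-0.01) and Neu4 (-0.05) were near 0, at mean levels under the lower quartile of all genes (7.83). Centring each array on its median moved the median difference over all genes from 0.00 to 0.03, so the sign of a difference as small as that of Neu2 can depend on the scaling. With this centring Psap (-0.08), Npc2 (-0.14), Arsa (-0.12) and Gm2a (-0.62) stayed below 0. Of the 6 other than Psap 1 fell and 5 did not pass. Npc2, a lysosomal cholesterol carrier, stood at 11.13 ± 0.07 in Dom/Dom and 11.31 ± 0.03 in WT (SD, n = 4 each), without overlap (limma adjusted p = 0.652, and 0.187 with the replicate block). Arsa, the sulfatide-cleaving arylsulfatase A, differed by -0.16 (limma adjusted p = 0.929).

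Among 7 genes of sphingomyelin and ceramide phosphate metabolism, 0 passed the limma fit and 2 had an unadjusted p under 0.05, both lower. Smpdl3a, named for its likeness to acid sphingomyelinase and known to cleave nucleotides, stood at 9.26, 9.19, 9.07 and 9.43 in Dom/Dom, against 9.71, 9.52, 10.05 and 10.37 in WT. The groups did not overlap, and the gap was wider in pairs 3 and 4 (-0.98 and -0.93) than in 1 and 2 (-0.45 and -0.33). The mean difference was -0.67 (standard error 0.17). The limma adjusted p was 0.165, against 0.0555 with the replicate block and 0.0142 with array weights. Cerk, the ceramide kinase, differed by -0.22 (limma adjusted p = 0.609, and 0.185 with the replicate block), again without overlap. Cert1, the protein that carries ceramide to the Golgi, differed by 0.10 (limma adjusted p = 1), of which pair 4 gave 0.37 and the other pairs at most 0.02.

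Among 6 genes of glycosphingolipid synthesis, 0 passed and 1 had an unadjusted p under 0.05. This was St3gal1, a sialyltransferase that acts mainly on glycoproteins, at 10.87 ± 0.15 in Dom/Dom and 11.30 ± 0.21 in WT (SD, n = 4 each). Its difference was -0.43, lower in 4 of 4 pairs (limma adjusted p = 0.223, 0.0524 with the replicate block and 0.0259 with array weights). St3gal1 has 2 probe sets, and with their mean the difference was smaller, at -0.30 (limma adjusted p = 0.301). B3gnt5, which starts the lacto-series of glycolipids, differed by 0.21 and was above 0 in 4 of 4 pairs (limma adjusted p = 0.836). B4galnt1, which makes the gangliosides GM2 and GD2, differed by -0.18 (limma adjusted p = 1). It stood at 9.46, 9.45, 8.64 and 8.86 in Dom/Dom, against 9.56, 9.47, 9.06 and 9.03 in WT, so that replicates 3 and 4 were lower in both genotypes.

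In the remaining lists, the 8 genes above left out, 0 genes passed the limma fit and 0 had an unadjusted p under 0.05. Of 5 genes that move or sense sphingosine 1-phosphate, the exporter Spns2 differed by -0.06, the transporter Abcc1 by 0.13 and the receptor S1pr3 by -0.09. S1pr3 stood at 9.77, 10.05, 9.83 and 9.95 in Dom/Dom, against 10.32, 9.76, 9.98 and 9.91 in WT, and its pair differences ran from -0.55 to 0.30. The receptor genes S1pr1, S1pr2 and S1pr5 and the kinase gene Sphk2 were listed but not measured, so the lists were covered in part only. Of 3 further genes of sphingosine phosphate turnover, the lipid phosphatases Plpp1 and Plpp2 differed by 0.02 and -0.16, and Aldh3a2, which oxidises the aldehyde that the lyase releases, by -0.16. Of 7 further genes of ceramide synthesis, the differences ran from -0.08 for Ormdl3 to 0.07 for Ormdl1, both of which encode regulators that restrain serine palmitoyltransferase, and Sptssa, a small subunit of that enzyme, differed by 0.03. In the list of lysophosphatidic acid genes, to which Enpp2 belongs, the receptor gene Lpar6 was the 1 measured, at 13.12 ± 0.10 in Dom/Dom and 12.97 ± 0.06 in WT (SD, n = 4 each), without overlap (limma adjusted p = 0.976).

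**Figure D4:**
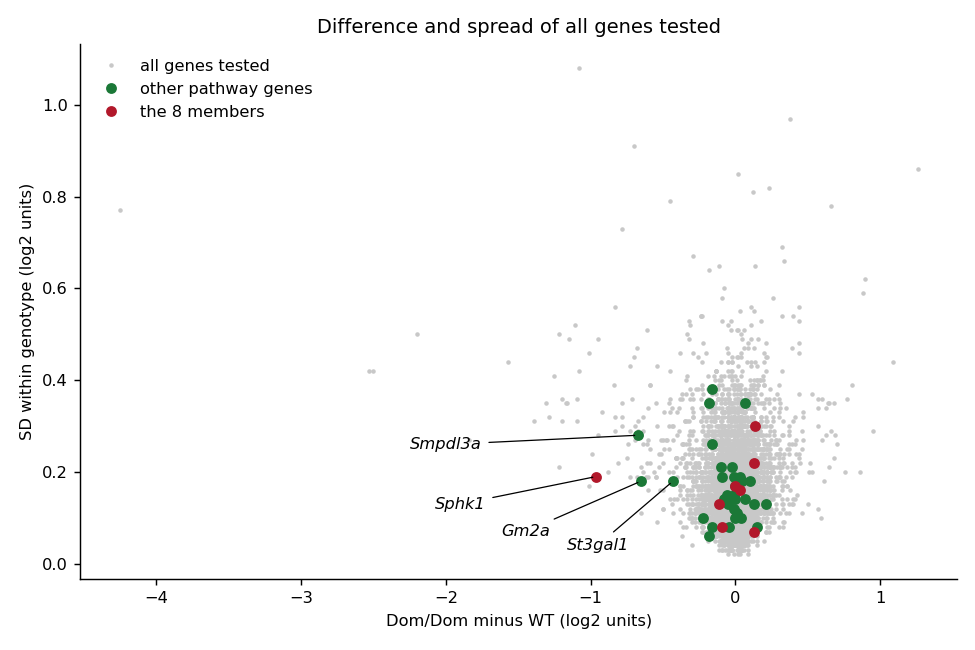
Dom/Dom minus WT (horizontal axis) and SD within genotype (vertical axis), both in log2 units, for all 6855 genes tested (grey), the 35 other pathway genes (green) and the 8 members of the gene set (red). Sphk1 lies at -0.96, and the other 7 red points lie within 0.14 of 0.

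The levels of Sphk1 over the 8 arrays were most like those of Lama4, a laminin chain (Pearson r = 0.997), Cdh19, a cadherin of Schwann cell precursors (0.992), Dct, an enzyme of melanin synthesis (0.982), Pmel, which forms melanosome fibrils (0.981), and Deptor, an mTOR inhibitor (0.980). The levels of Sphk1 do not overlap between the genotypes, so such an r largely gives the gap between them, and all 5 genes were lower in Dom/Dom by more than Sphk1 (differences from -4.25 to -1.31), which is given with no test, as they were picked for their likeness to Sphk1. When each array was taken as its deviation from its genotype's mean, r with Sphk1 was 0.97 for Lama4, 0.92 for Cdh19, 0.81 for Dct, 0.81 for Pmel and 0.89 for Deptor. Lama4 itself stood at 8.19, 8.39, 8.36 and 8.60 in Dom/Dom, against 10.39, 10.38, 11.31 and 11.44 in WT, with WT replicates 3 and 4 on top as in Sphk1. By the same measure the deviations of Psap (0.87) and Sgpl1 (0.82) ran with those of Sphk1 and the deviations of Sgpp1 against them (-0.88). The deviations share the replicate numbers and arrays, and these values over 8 arrays describe likeness only.

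**Figure D5:**
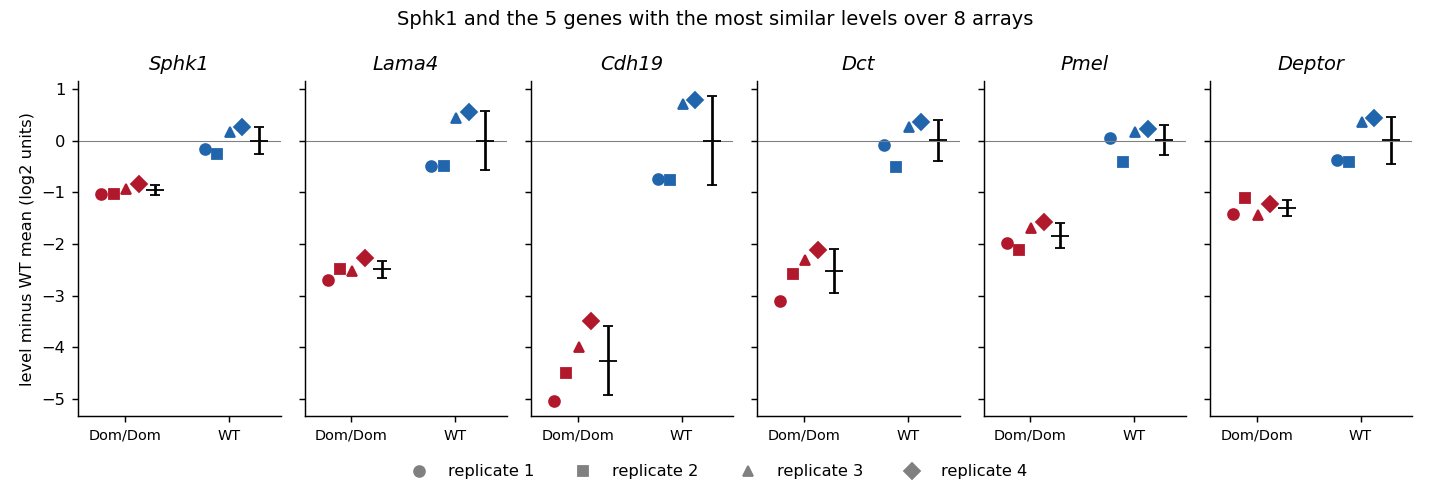
Level minus the WT mean in log2 units (vertical axis) for Sphk1 and the 5 genes most like it, on each array, with symbols for replicates 1 to 4 and black bars for the mean and SD of 4 arrays. The Dom/Dom mean is -0.96 for Sphk1 and -4.25 for Cdh19, and WT replicates 3 and 4 are the highest arrays in each panel.

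Some markers of glial and melanocyte precursors moved with Sphk1 and Gm2a. Of 8 listed markers of glia and Schwann cell precursors 6 were measured and 4 were lower in Dom/Dom by the limma fit (Cdh19, Erbb3, Cnp and Adgrg6), where 0.408% of all genes were lower. The other two did not pass: Fabp7, a fatty acid binding protein of glial precursors, stood at 13.99 ± 0.14 in Dom/Dom and 14.07 ± 0.12 in WT (SD, n = 4 each), and S100b, a calcium binding protein of glia, differed by -0.04. The log2 of the summed linear levels of the 6 ran from 14.23 to 14.44 in Dom/Dom, against 14.61 to 15.07 in WT, and Fabp7 was the brightest of them in both genotypes. Of 6 melanoblast markers the 2 measured, Dct and Pmel, were both lower, with summed levels of 9.0 to 9.69 in Dom/Dom, against 11.08 to 11.87 in WT. The summed endothelial markers (2 of 8 measured, Pecam1 and Icam2) overlapped, at 9.19 to 9.27 in Dom/Dom and 9.14 to 9.30 in WT, and so did those of blood and macrophages (3 of 7, 11.36 to 12.93 in Dom/Dom, 12.00 to 13.60 in WT), neurons (4 of 9, 12.73 to 13.37 in Dom/Dom, 13.06 to 13.66 in WT) and epithelium (3 of 6, 12.63 to 13.03 in Dom/Dom, 12.91 to 13.52 in WT). Those of somite and lateral mesoderm (4 of 7, 11.23 to 11.86 in Dom/Dom, 10.79 to 11.47 in WT) and of smooth muscle and fibroblasts (4 of 7, 12.78 to 13.01 in Dom/Dom, 12.45 to 12.83 in WT) overlapped too. Summed levels can hide single genes. Between the genotypes the levels of Myocd (difference 0.63), Des (0.36), Myf5 (0.60) and Pou4f1 (-0.64) did not overlap. Over all genes 3.78% were separate in this way. In these 6 lists 0 genes passed the limma fit, and of 7 neural tube markers 0 were measured. With the replicate block 3 genes passed, where 1.50% of all genes did: Pou4f1, a transcription factor of sensory neurons (difference -0.64, adjusted p = 0.00744), the keratin gene Krt8 (-0.50, 0.0164) and Prrx1, a transcription factor of mesenchyme (0.44, 0.0339). The 4 measured genes of smooth muscle and fibroblasts, Myocd, Des, Col1a1 and Col3a1, were above WT in 4 of 4 pairs, by 0.63, 0.36, 0.26 and 0.17 on average, and 0 of them passed either fit (adjusted p from 0.0507 to 0.235 with the block); 21.1% of all genes had the same sign in all 4 pairs. The marker lists, too, were chosen with earlier results of these data known, so their counts are a description. The part of these cell types in the level of Sphk1 or Gm2a was not tested.

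The measured neighbours of Sphk1 on its chromosome differed little. Of the 3 measured genes before it (Rnf157, Qrich2 and Prpsap1) and the 3 after it (Ube2o, Aanat and Rhbdf2), 0 passed the limma fit and 0 had an unadjusted p under 0.05. Their differences ran from -0.13 for Prpsap1 to 0.04 for Qrich2, against -0.96 for Sphk1.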

How the data were processed

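RNA of 8 samples was labelled from 250 ng of total RNA, per the labels' protocols. Values were deposited as log2 expression for each probe set on each array. The submitters' processing notes name RMA and Partek; their settings are not given in the sources used here. As a method, RMA compresses differences of dim probe sets. No detection calls were used, so signal over background is unknown per gene, and the number of arrays limits the precision. Array medians lay between 8.60 and 8.78.

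The table held 16381 probe sets, part of the array. The platform annotation pairs 7416 with 1 gene symbol, 509 with more than 1 and leaves 8456 unnamed. Taking the brightest probe set with 1 symbol per gene gave 6855 genes, of which 6829 took their current symbol from RefSeq (GRCm38.p6) and 97.9% lie on chromosomes 1 and 10 to 16. The genotype term was fitted alone in limma 3.58.1 (R 4.3.3) with lmFit and eBayes, as a two-sided test adjusted over all genes by Benjamini-Hochberg at a threshold of 0.05, and the steps were tested on simulated data. Named were the 8 measured genes, Sox10, other pathway genes past the threshold, the 3 largest differences per pathway list, and the 5 genes most correlated with Sphk1. The Sphk1 neighbours, and Erbb3, Cnp, Adgrg6, Neu2 and Neu4, were named after their values were seen. The members and lists were chosen with earlier results of these data known.

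Deviations of same-numbered arrays from their genotype means had correlations of 0.47, 0.58, 0.61 and 0.67 (replicates 1 to 4), over the limit of 0.1 and above those of differently numbered arrays (at most 0.38). The replicate numbers were treated as pairs in the pair differences and in the fit with the replicate block. The fit reported did not use them, so its standard errors and p-values count the spread between replicate numbers as scatter. The labels do not state such a pairing.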

Additional observations from a re-analysis of the deposited data

Results flagged for a closer look

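In each genotype a search was made for 1 array far from the other 3, over the 8 genes, the other named pathway genes, the genes most like Sphk1 and Sox10. Such an array was found in 3 of 66 sets, where chance gives about 5%, and none was of the 8 genes. Npc2 was low in Dom/Dom replicate 3 (11.02, others 11.16 to 11.18). Sptssa was low in WT replicate 1 (8.78, others 9.0 to 9.04), and Lpar6 was low in WT replicate 3 (12.88, others from 12.99 upwards).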

How the results depend on the processing

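The alternatives were a replicate block, quantile normalization, centring of each array on its median, the mean of a gene's probe sets, all probe sets with 1 symbol tested, brighter genes only, array weights, a robust variance trend, and each of the 8 arrays left out. The difference of Sphk1 ran from -1.06 to -0.87 over them, and its calls are not read, since this contrast chose the gene. The other 7 genes moved by less than their spread within genotype, though with an array left out Degs1 ran from -0.06 to 0.10 and Sgpl1 from -0.07 to 0.05, both across 0, Sgpp1 from 0.03 to 0.26 and Sgpp2 from 0.02 to 0.22. Over all genes, 33 in the fit reported, the count was 103 with the replicate block, 190 with array weights and 10 to 51 when an array was left out. Of the 35 other pathway genes, 0 passed after quantile normalization, with median centring and with all probe sets with 1 symbol tested, 3 with array weights (Gm2a, Smpdl3a and St3gal1), 1 with the replicate block (Gm2a), and 0 to 1 when an array was left out. The block changed no other call among the pathway genes. The cause of these changes was not tested. Among other genes, differences near 0 changed sign: Sptssa was at -0.03 with array weights, and with an array left out Ormdl1 ran from -0.12 to 0.22, Sptssa from -0.07 to 0.11, Cert1 from -0.01 to 0.17, Plpp1 from -0.04 to 0.10, S1pr3 from -0.17 to 0.02 and Spns2 from -0.13 to 0.01. Signal over background is unknown, so how far it limits the dimmer genes cannot be said.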
